A study of Saccharomyces cerevisiae with 8 samples.

Results

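The comparison described here set a budding yeast strain that lacks STB3 against a wild-type strain 10 min after starved cells were given glucose. Both groups were Saccharomyces cerevisiae grown for 3 days in YPD, a rich medium, and then supplied with 2% glucose for 10 min. One was the wild type BY4742 and the other a strain labelled stb3-null, and each was measured on 2 Affymetrix arrays, called A and B. These 4 arrays belong to a series of 8, in which the remaining 4 hold the same strains after 3 days in YPD with no glucose added. All annotated genes of the array were taken as members. The array has a probe set that belongs to a single gene for 5656 genes, of which 5343 passed a filter on low signals and were tested. How the deletion was made, whether the strain is 1 clone and whether A and B came from separate cultures are not given in the sources used here, so the p-values reflect no more than the scatter among these arrays, and that scatter may be technical.

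Stb3 recognises the ribosomal RNA processing element (RRPE), a short motif in the promoters of many genes for making ribosomes. It was first known as a partner of Sin3, a subunit of a histone deacetylase complex, and has been described as a repressor of ribosome biogenesis genes in cells short of nutrients. When starved yeast receives glucose, cells switch within minutes from stress protection and respiration towards ribosome production, nucleotide synthesis and fermentation. The comparison asks how far the state reached soon after glucose differs when Stb3 is missing.

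Array medians over the 8 arrays lay between 7.53 and 7.69 on the log2 scale, and the trimmed mean signals of the 4 arrays after glucose lay between 625 and 673. The wild-type arrays after glucose differed more from each other than the stb3-null arrays did. The SD over all genes of the log2 difference between A and B was 0.548 for wild type and 0.278 for stb3-null. A and B lay more than 1 apart for 367 and 28 genes. BY4742 is of mating type alpha. MF(ALPHA)1, which encodes the alpha factor, lay between 12.71 and 13.20 after glucose. Of 8 genes listed for a cells, 4 did not reach the filter level (STE2, BAR1, AGA2 and ASG7) and 4 did, of which AXL1, MFA1 and MFA2 had signals of up to 8.70, 7.81 and 7.13 after glucose. Of these, AXL1 is not limited to a cells. BY4742 carries mutations of URA3, LYS2, LEU2 and HIS3. After glucose the first 3 reached 4.62, 3.76 and 6.18, and HIS3 lay between 10.43 and 11.17.

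Most genes had similar signals in both strains after glucose. Differences are given throughout as the log2 signal in stb3-null minus that in wild type. The median over all genes was 0.03, and the 25th and 75th percentiles were -0.19 and 0.25. Of the 5343 genes, 2904 had a difference above 0 and 2434 below 0. In 3931 genes, or 73.6%, the 95% interval of the difference lay within -1 and 1, and over all genes the median interval reached 0.55 to either side. The difference was above 1 for 43 genes and below -1 for 57, and for 38 and 53 of these both arrays of one strain lay on the same side of both arrays of the other. Such separation was common at any size: both stb3-null arrays lay above both wild-type arrays in 23.8% of all genes and below them in 20.3%.

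With limma's moderated test and Benjamini-Hochberg adjustment over all genes, 1 gene passed an adjusted p of 0.05, and it was STB3 itself. That is 0.0187% of the genes tested as lower in stb3-null, and 0% passed as higher. The next smallest adjusted p was 0.176. At an unadjusted p of 0.05, 270 genes (5.05%) were on the higher side and 246 (4.6%) on the lower side, and with 3 other scalings between arrays these counts were 208 and 231, 198 and 308, or 190 and 299. All genes other than STB3 are therefore described by their values. Single arrays moved the differences of some genes. Without wild type A, so that stb3-null was set against wild type B alone, PHO5 differed by -2.81, CAT8 by 2.08 and MAE1 by -1.23. Without wild type B the same genes differed by -1.39, 0.63 and -1.02. Such a fit leaves 1 array in a group and takes its spread from the other groups. Counts of genes passing in such fits appear only in the last section and are not read as calls.

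**Figure D1:**
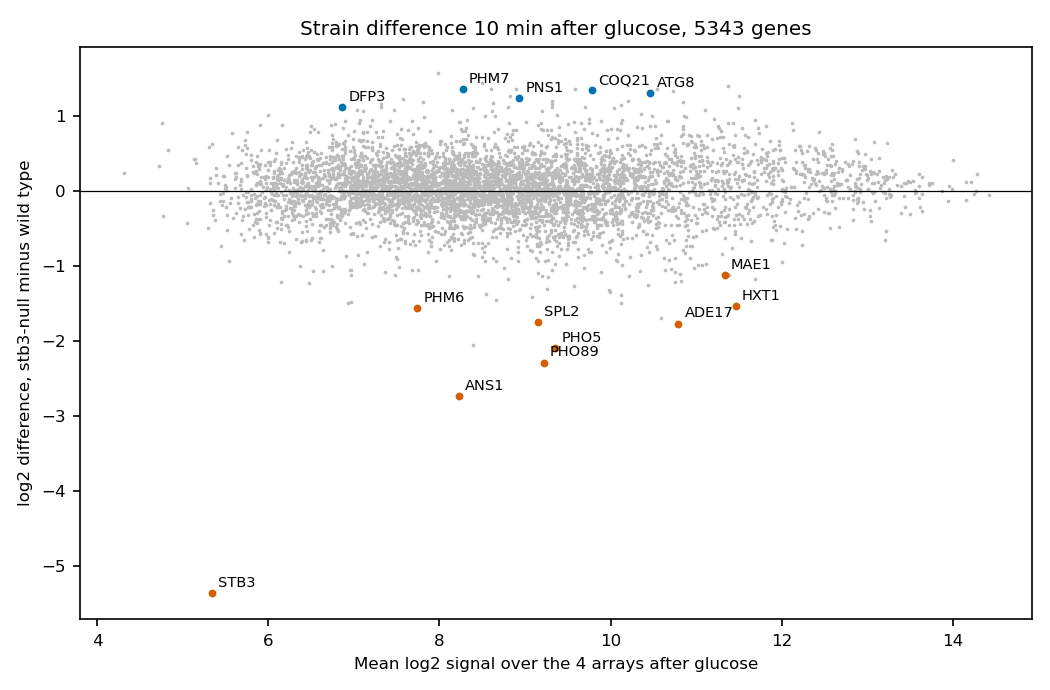
Log2 difference between stb3-null and wild type after glucose (vertical) against the mean log2 signal over the 4 arrays (horizontal), 1 point per gene, with some genes of the lower side named in orange and of the higher side in blue. STB3 lies alone at -5.36, and ANS1 (-2.74), PHO89 (-2.29), PHO5 (-2.10) and SPL2 (-1.75) lie at the lower edge of the remaining cloud.

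STB3 (YDR169C) had no signal above the filter level in the stb3-null strain. Its log2 signal was 8.42 and 7.62 on the wild-type arrays A and B after glucose and 2.50 and 2.82 on those of stb3-null. The difference was -5.36 (SE 0.34, adjusted p = 2.17e-04), and no fold is given, since both signals of stb3-null were under the filter level of 5.80. The 10 annotated genes on either side of STB3 were read as well. Of these 20, 18 were measured, and 0 passed (smallest adjusted p 0.409, with 1 at an unadjusted p under 0.05). Their differences ran from -0.56 for SUP35, a translation release factor, to 0.77 for ARG82, a kinase of inositol polyphosphates, with 10 of 18 above 0. The adjacent gene CDC37, for a kinase chaperone, lay at 11.11 and 10.70 in wild type and at 11.16 and 11.20 in stb3-null, a difference of 0.27 (SE 0.25, adjusted p = 0.754). SEC7, for an exchange factor of Golgi transport, differed by -0.44 (SE 0.27, adjusted p = 0.630).

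Some genes that respond to phosphate stood at the lower edge. In budding yeast the transcription factor Pho4, with Pho2, turns on phosphate transporters, secreted acid phosphatases and polyphosphate synthesis when phosphate is scarce. SPL2, which encodes a regulator of low-affinity phosphate transport, gave 10.24 and 9.82 in wild type and 8.16 and 8.39 in stb3-null. The arrays of the strains were 1.43 apart at the nearest, and the difference was -1.75 (SE 0.26, adjusted p = 0.176), a 3.38-fold lower signal. PHM6, another phosphate-regulated gene, gave 8.27 and 8.77 against 7.03 and 6.90, a difference of -1.56 (SE 0.26, adjusted p = 0.226). The acid phosphatase gene PHO5 was at 9.69 and 11.11 in wild type and at 8.26 and 8.34 in stb3-null. PHO89, for a sodium-coupled phosphate transporter, was at 9.37 and 11.36 against 8.05 and 8.09. Both were close on the stb3-null arrays and variable in wild type, with differences of -2.10 (SE 0.42) and -2.29 (SE 0.52) and an adjusted p of 0.252 each.

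Of the 22 measured genes of the phosphate list, 0 passed, 18 had a difference below 0 and 15 had both stb3-null arrays below both wild-type arrays, or 68.2% against 20.3% of all genes. At an unadjusted p of 0.05, 8 were lower and 0 higher, against 4.6% and 5.05% of all genes. The list median was -0.49, against 0.03 over all genes, and it lay between -0.76 and -0.26 in the 4 pairings of arrays. PHO3, for another acid phosphatase, differed by -1.35, VTC3 of the polyphosphate synthesis complex by -1.22, the glycerophosphoinositol transporter gene GIT1 by -1.07 and the high-affinity transporter gene PHO84 by -0.65. PHO3 and PHO5 encode similar proteins, and whether their probe sets share signal was not tested. PHM7, which shares the name prefix of PHM6, was listed with the stationary-phase genes and not here, and it differed by 1.36. The regulator gene PHO4 differed by -0.54, PHO81 by -0.18 and PHO2 by 0.25, and PHO80 and PHO85, for the cyclin and kinase that hold Pho4 inactive, by 0.34 and 0.40. With array weights SPL2, PHM6 and PHO5 passed, at adjusted p of 0.028, 0.028 and 0.0481. After glucose the weights were 0.6 on both wild-type arrays and 2.14 on both stb3-null arrays, so they did not set wild type B apart from A. Leaving out a 3-day array cannot change the differences of SPL2 and PHM6, which come from the arrays after glucose.

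**Figure D2:**
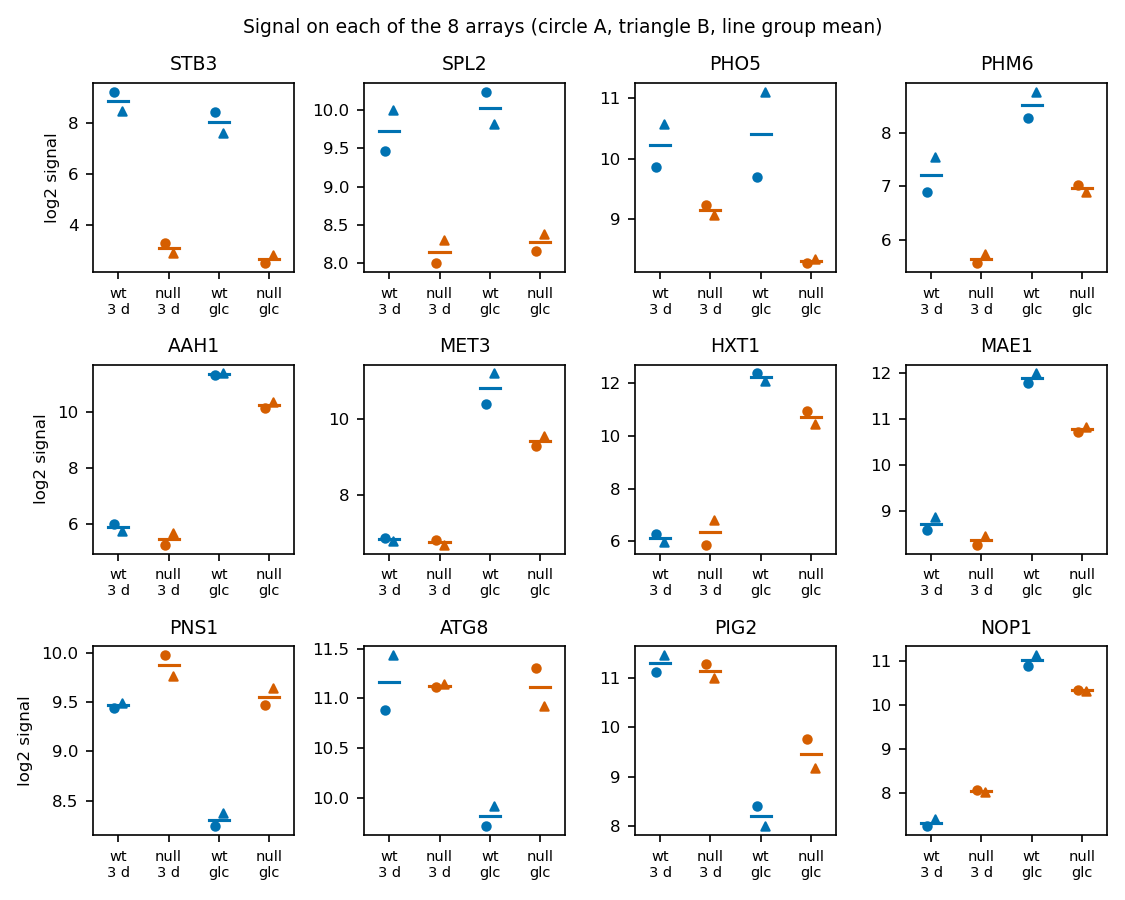
Log2 signal (vertical, scales differ between panels) of 12 genes on each of the 8 arrays, as wild type (wt, blue) and stb3-null (null, orange) at 3 days (3 d) and after glucose (glc), with circles for A, triangles for B and lines for the means. SPL2 and PHM6 sit lower in stb3-null at both times (-1.58 each at 3 days), whereas MET3 and HXT1 differed by -0.08 and 0.22 at 3 days and by -1.39 and -1.54 after glucose. At 3 days the signals of MET3 and HXT1 were not far above the filter level of 5.80, and those of PHM6 in stb3-null were under it.

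Several genes at the lower edge act in the separation of daughter cells after division. DSE1, DSE2 and EGT2 are known for their expression in daughter cells. DSE1 gave 6.74 and 7.45 in wild type and 6.0 and 5.72 in stb3-null, a difference of -1.23 (SE 0.27, adjusted p = 0.252), which was -0.56 with a pseudocount of 20%. DSE2 gave 10.32 and 11.41 against 9.43 and 9.31 (-1.50, SE 0.36), and EGT2, for a cell-wall protein of the septum, 8.90 and 9.89 against 7.80 and 8.06 (-1.46, SE 0.32). The chitinase gene CTS1 differed by -1.12 and SCW11, for a cell-wall glucanase-like protein, by -1.08. Of 11 measured genes in a list drawn up after these values were seen, 10 had both stb3-null arrays below wild type, and ASH1 at 0.18 overlapped. Because it was chosen that way, the list carries no test. In RNA from a whole culture, fewer cells of one kind and less RNA per cell cannot be told apart.

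Most genes of purine and pyrimidine synthesis lay lower in stb3-null. AAH1, for adenine deaminase, gave 11.32 and 11.40 in wild type and 10.16 and 10.35 in stb3-null. Its replicates were close, and the difference was -1.11 (SE 0.21, adjusted p = 0.248), or 2.15-fold. ADE17, for an enzyme of the last steps of IMP synthesis, gave 11.52 and 11.84 against 9.84 and 9.97 (-1.77, SE 0.41, adjusted p = 0.261). SHM2, the cytosolic serine hydroxymethyltransferase gene that feeds the one-carbon pool, gave 11.15 and 11.72 against 9.64 and 9.83 (-1.70, SE 0.47). MTD1, for a dehydrogenase of the same pool, differed by -1.08, and ADE6, ADE2, ADE1, ADE13 and ADE12 by -1.07, -1.03, -0.99, -0.99 and -0.97.

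In the list of purine and pyrimidine synthesis 0 of 43 genes passed, 36 had a difference below 0 (median -0.37), 24 had both stb3-null arrays below both wild-type arrays (55.8%, against 20.3% of all genes) and 0 above, and 17 had an unadjusted p under 0.05 on the lower side, against 4.6% of all genes. The members with the highest moderated t were URA10 at 0.43 and YNK1, for nucleoside diphosphate kinase, at 0.39, and in both the arrays overlapped. The list median lay between -0.57 and -0.26 in the 4 pairings. Outside the list, LIA1, for the hydroxylase that completes the hypusine of a translation factor, showed the same order of arrays (11.39 and 11.46 against 9.96 and 10.49, -1.20, SE 0.24). So did MAE1, the mitochondrial malic enzyme gene (11.79 and 12 against 10.71 and 10.83, -1.12, SE 0.23), and TRM5, a tRNA methyltransferase gene (9.10 and 9.45 against 8.16 and 8.33, -1.03, SE 0.20).

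Sulfate assimilation genes, which reduce sulfate for cysteine and methionine, also lay lower, by an amount that differed between the wild-type arrays. MET3, the ATP sulfurylase gene, gave 10.41 and 11.22 in wild type and 9.29 and 9.55 in stb3-null (-1.39, SE 0.27, adjusted p = 0.248), a 2.63-fold lower signal. MET5, for a subunit of sulfite reductase, gave 10.69 and 11.44 against 9.81 and 9.83 (-1.25, SE 0.30). Of 36 measured genes 0 passed, 32 had a difference below 0 and 19 had both arrays below wild type (52.8%, against 20.3% of all genes), with a median of -0.52. Against wild type A the median was -0.29 and -0.09 for the stb3-null arrays A and B, and against wild type B it was -0.93 and -0.89. MET4, which encodes the activator of the pathway, lay the other way, at 8.31 and 9.16 in wild type and 9.59 and 9.68 in stb3-null (0.90, SE 0.31, adjusted p = 0.411).

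Among the genes of glucose uptake and sensing, HXT1 and HXT2 stood apart. HXT1, for a low-affinity glucose transporter, gave 12.38 and 12.08 in wild type and 10.95 and 10.44 in stb3-null, and the difference was -1.54 (SE 0.32, adjusted p = 0.252), a 2.90-fold lower signal. HXT2, for a transporter used at low glucose, gave 7.11 and 8.25 against 5.88 and 6.48 (-1.50, SE 0.37). Its stb3-null A signal was near the filter level of 5.80, and with a pseudocount of 20% the difference was -0.80. MTH1, for a co-repressor of the HXT genes, gave 9.90 and 8.65 against 10.10 and 10.11 (0.83, SE 0.38), which was 0.20 without wild type B and 1.45 without wild type A. HXT5 differed by 0.74 (SE 0.38). The 22 measured genes had a median of 0.16, with 15 above 0. Both stb3-null arrays lay above wild type in 6 (27.3%) and below in 4 (18.2%), near the 23.8% and 20.3% of all genes. The list median was -0.16 without wild type B. Of 23 genes of glycolysis and fermentation, 17 lay below 0 (median -0.22), with GPD1, for a glycerol phosphate dehydrogenase, at 0.86 (SE 0.27).

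Genes for assembling the ribosome, the class that Stb3 is known for, lay slightly lower in stb3-null after glucose in most members. They encode the small-subunit processome, which cuts and folds the precursor of the small-subunit RNA, and the factors that build the large subunit. Of 73 measured genes for the processome and 40S assembly 0 passed and 70 had a difference below 0, against 2434 of 5343 among all genes. At an unadjusted p under 0.05, 18 were lower and 0 higher, against 4.6% and 5.05% of all genes. In 47 genes both stb3-null arrays lay below both wild-type arrays, and in 0 above. The separated share was 64.4%, against 20.3% of all genes. The list's median signal was 9.36 and 9.62 on the wild-type arrays and 8.95 and 9.19 on those of stb3-null. The median difference was -0.39, and in the 4 pairings of arrays it ran from -0.68 to -0.09.

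NOP1, for fibrillarin, the methyltransferase of the box C/D particles, gave 10.89 and 11.15 in wild type and 10.34 and 10.33 in stb3-null (-0.69, SE 0.21, adjusted p = 0.384). FAL1, for an RNA helicase of 40S maturation, gave 8.71 and 9.04 against 7.97 and 8.27 (-0.76, SE 0.20). The lowest difference was that of UTP10 at -1.13 (SE 0.37), for which wild type A and B were 10.17 and 11.38. RRP7 at 0.43 and KRE33 at 0.14 had the highest moderated t, and their arrays overlapped. For the 83 genes of 60S assembly the counts were alike: 0 passed, 79 lay below 0, and the median was -0.30 (-0.63 to -0.04 by pairing). Both arrays lay below wild type in 41 (49.4%, against 20.3% of all genes) and above in 0. CIC1, which acts in large-subunit assembly, gave 10.30 and 10.71 against 9.41 and 9.91 (-0.84, SE 0.24), and RSA4, which acts there too, 10.39 and 10.55 against 9.64 and 10.02 (-0.64, SE 0.21). Under 17 other settings, which include each array left out, the median lay between -0.56 and -0.23 for the processome. For 60S assembly it lay between -0.53 and -0.16. The ends of both ranges came from leaving out wild type A or wild type B after glucose. Some settings cannot test these medians, because they leave the compared signals as they were. These are the array weights, the replicate block and leaving out an array taken before glucose.

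**Figure D3:**
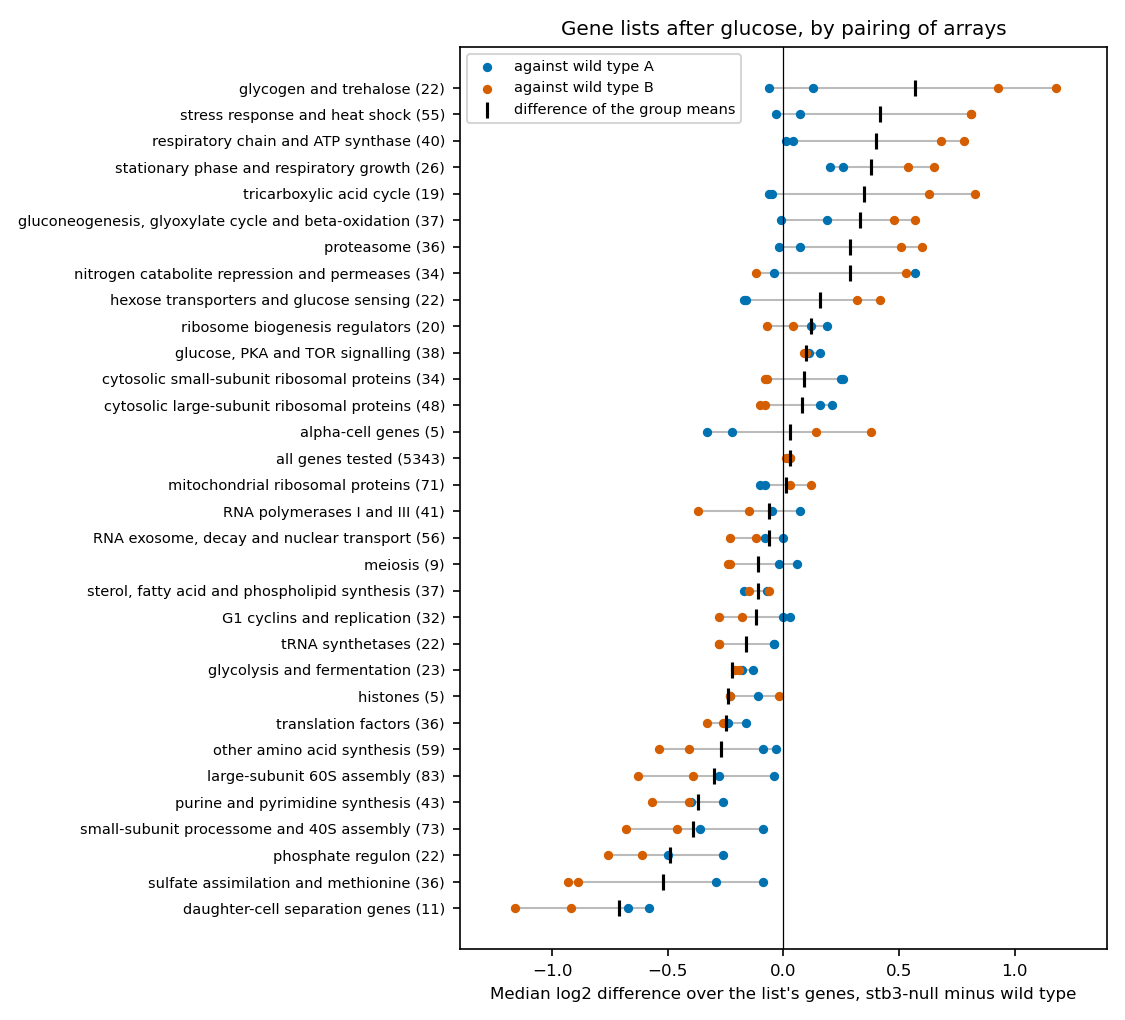
Median log2 difference (horizontal) over the genes of each list (number tested in brackets), stb3-null minus wild type after glucose, with blue points for either stb3-null array against wild type A, orange points against wild type B and a black tick for the difference of the group means. For glycogen and trehalose the orange points (0.93 and 1.18) lie far from the blue ones (-0.06 and 0.13), while the phosphate regulon lies between -0.76 and -0.26 in each pairing.

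The translation apparatus showed smaller differences, and 0 of its genes passed. Of 36 translation factor genes, 30 lay below 0 and 17 had both arrays below wild type (47.2%, against 20.3% of all genes, with a median of -0.25), with SUI2, for the alpha subunit of the initiation factor eIF2, at -0.92 (SE 0.26). Among 22 tRNA synthetase genes 18 lay below 0 (median -0.16, but -0.03 without wild type B and -0.33 without wild type A), with the lysyl enzyme gene KRS1 at -0.52. The 41 genes of RNA polymerases I and III had a median of -0.06, with RPC40, for a subunit that both enzymes share, at -0.65 and HMO1, for a protein bound to ribosomal DNA and ribosomal protein genes, at 0.57.

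Ribosomal protein genes were nearer to the median of all genes than the assembly factors were. The median difference was 0.08 over 48 large-subunit and 0.09 over 34 small-subunit genes, with 7 and 3 above wild type on both arrays and 4 and 0 below, where 23.8% and 20.3% of all genes were above and below. These medians were above 0 against wild type A (0.16 to 0.26) and below 0 against wild type B (-0.10 to -0.07), and under other scalings they reached -0.02 and -0.01. RPS22B, measured by a suffixed probe set, which can mark sequence shared with another gene, differed by -1.27 (SE 0.75), with wild type B at 11.48 and wild type A at 8.94. The 71 mitochondrial ribosomal protein genes had a median of 0.01.

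Of 20 genes for regulators of ribosome biogenesis STB3 passed and 12 lay above 0. After STB3 the differences ran from -0.62 for UTP22, a processome subunit gene, to 0.57 for HMO1, and in both the strains did not overlap. SFP1 and FHL1, for activators of ribosomal protein and ribosome biogenesis genes, differed by 0.25 (SE 0.20) and 0.18 (SE 0.24). DOT6 and TOD6, for repressors that bind another motif of ribosome biogenesis promoters, differed by -0.28 (SE 0.28) and 0.05 (SE 0.24). SIN3 and RPD3, of the deacetylase complex, differed by 0.30 (SE 0.23) and 0.29 (SE 0.24), and IFH1, for the partner of Fhl1, by -0.35 (SE 0.24).

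On the higher side, the 10 genes of smallest p had differences between 0.92 and 1.36. PNS1, for a membrane protein of the choline-transporter-like family, gave 8.24 and 8.38 in wild type and 9.47 and 9.64 in stb3-null, with a difference of 1.24 (SE 0.21, adjusted p = 0.226) or 2.37-fold. ATG8, which encodes the ubiquitin-like protein that coats autophagosomes, gave 9.71 and 9.92 against 11.31 and 10.92 (1.30, SE 0.28, adjusted p = 0.252). ATG39, for a receptor in autophagy of the nuclear envelope, gave 7.72 and 7.49 against 8.74 and 8.63 (1.08, SE 0.22). PXA2, whose product helps carry long-chain fatty acids into peroxisomes, gave 6.78 and 6.22 against 7.58 and 7.58 (1.08, SE 0.23). For PNS1, ATG8, ATG39 and PXA2 the wild-type arrays after glucose lay below all 4 arrays before glucose. For ATG39 and PXA2 the stb3-null arrays after glucose did so too. Their changes with glucose were -1.80 and -1.09 in stb3-null, beside -2.62 and -2.25 in wild type. Before glucose ATG8 was at 10.88 and 11.44 in wild type and 11.11 and 11.14 in stb3-null, a range that holds both stb3-null arrays after glucose.

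RPI1, for a putative transcriptional regulator linked to the Ras pathway, gave 8.52 and 8.81 in wild type against 9.82 and 9.65 (1.07, SE 0.21). The other genes among the 10 of smallest p on this side were DFP3 (1.12), COQ21 (1.34), PHM7 (1.36), DUF1 (0.92) and YNCL0009C (0.93). Each had both stb3-null arrays above both wild-type arrays, and YNCL0009C was measured by a suffixed probe set.

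Storage carbohydrate genes lay higher in stb3-null, mostly against wild type B. PIG2, for a protein that targets a phosphatase to glycogen synthase, gave 8.40 and 7.99 in wild type and 9.76 and 9.17 in stb3-null (1.27, SE 0.29, adjusted p = 0.252). GAC1 and GIP2, for related targeting subunits, differed by 1.20 (SE 0.28) and 0.78 (SE 0.18), and for PIG2, GAC1 and GIP2 the strains did not overlap. Of 22 genes in the glycogen and trehalose list 0 passed, 19 lay above 0 and 10 had both stb3-null arrays above wild type (45.5%, against 23.8% of all genes), with a median of 0.57. Against wild type A the median was -0.06 and 0.13, and against wild type B 0.93 and 1.18. The list holds ATC1, which is not known as a gene of these pathways, and without it the median over 21 genes was 0.58.

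Respiration, stress and proteasome genes also depended on the wild-type array. The respiratory chain and ATP synthase list had 39 of 40 genes above 0, 20 with both arrays above wild type (50%, against 23.8% of all genes) and 0 below, and a median of 0.40. COX7, for a subunit of cytochrome c oxidase, gave 11.96 and 12.13 against 12.73 and 12.92 (0.78, SE 0.25). The list median against wild type A was 0.04 and 0.01, and against wild type B 0.78 and 0.68. Tricarboxylic acid cycle genes (19, median 0.35), stress and heat-shock genes (55, median 0.42) and proteasome genes (36, median 0.29) likewise had medians between -0.06 and 0.07 against wild type A and between 0.51 and 0.83 against wild type B. The part of wild type B in these differences could not be weighed with 2 wild-type arrays.

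**Figure D4:**
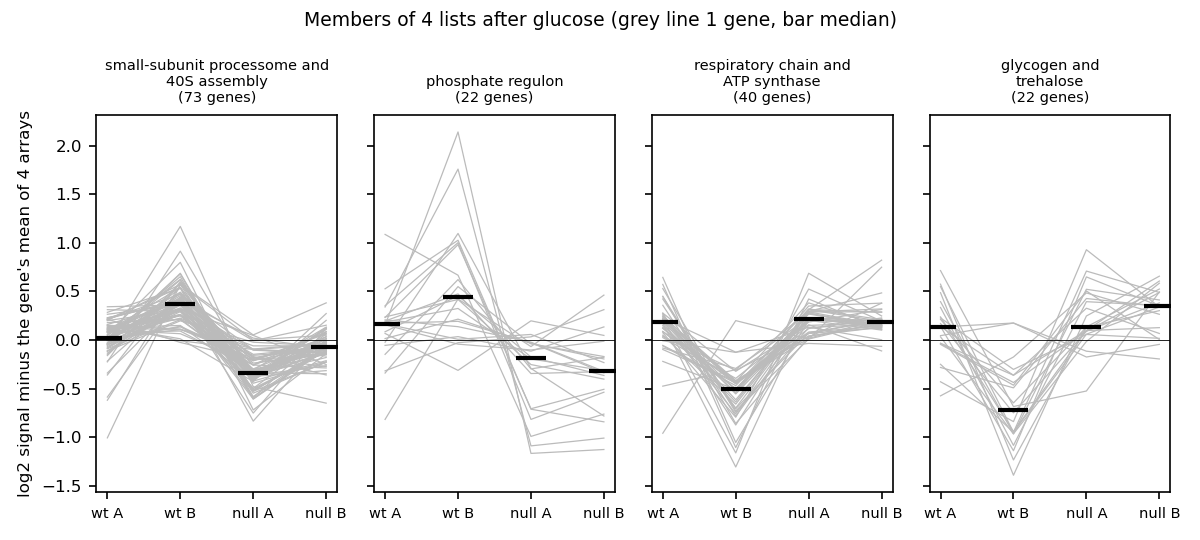
Log2 signal of each gene on the 4 arrays after glucose minus that gene's mean over them (vertical) by array (horizontal), for 4 lists, with a grey line per gene and black bars for list medians. Respiratory and glycogen genes have their lowest medians on wild type B (-0.51 and -0.72), whereas phosphate genes have medians above 0 on both wild-type arrays (0.16 and 0.44) and below 0 on both stb3-null arrays (-0.18 and -0.32).

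Regulator genes of these classes had wild-type arrays that were far apart. MSN4, for a general stress activator, gave 10.87 and 9.65 in wild type and 11.55 and 11.33 in stb3-null (1.18, SE 0.37). CAT8, for the activator of gluconeogenic genes, gave 8.66 and 7.20 against 9.24 and 9.33 (1.36, SE 0.43). RPN4, for the activator of proteasome genes, gave 9.86 and 9.12 against 10.89 and 10.29 (1.10, SE 0.32). Of 37 genes for beta-oxidation, gluconeogenesis and the glyoxylate cycle, 32 lay above 0 (median 0.33, and 0.04 without wild type B), with the carnitine acetyltransferase gene YAT1 at -0.78 (SE 0.26). The 26 genes of stationary phase and respiratory growth had a median of 0.38, which was above 0 against wild type A (0.26 and 0.20) as well as B (0.65 and 0.54). Of these genes 16 (61.5%) lay above wild type on both arrays and 0 below, against 23.8% and 20.3% of all genes.

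Some differences rested on a single array. ANS1 gave 12.12 on wild type B and 7.08 on A, beside 6.81 and 6.90 in stb3-null. YMR244W gave 11.34 on wild type B beside 7.51 on A, and 7.40 and 7.33 in stb3-null. DAL4, the allantoin transporter gene, gave 10.25 on stb3-null A and 7.28 on B, beside 7.43 and 6.96 in wild type. DAL4 and the proline oxidase gene PUT1 (11.46 and 9.88 against 12.62 and 11.53) are among the genes repressed by good nitrogen sources. Of the 34 measured genes of the list of nitrogen catabolite repression and permeases, 25 lay above 0 (median 0.29). That median was 0.57 and 0.53 for stb3-null A against wild type A and B, and -0.04 and -0.12 for stb3-null B.

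The strain difference before glucose was measured on other arrays and can be set beside the one after it. At 3 days 2 genes (0.0374%) passed, STB3 (-5.76, adjusted p = 1.13e-04) and ATC1, for a nuclear protein linked to cation homeostasis, which was higher in stb3-null by 1.80 (adjusted p = 0.00577). After glucose ATC1 gave 8.45 and 8.58 in wild type and 8.23 and 8.36 in stb3-null, a difference of -0.22 (SE 0.18, adjusted p = 0.721). The test of whether the strain difference itself differed between the times, an interaction term in the same fit, was passed by 0% of genes, with 370 at an unadjusted p under 0.05. ATC1 had the smallest adjusted p, 0.0849. Over all genes without STB3 the differences before and after glucose had a Pearson correlation of 0.19 across genes, given as a description, and 55.2% had the same sign.

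Some phosphate and daughter-cell genes lay lower in stb3-null at both times. SPL2 differed by -1.58 at 3 days and PHM6 by -1.58, beside -1.75 and -1.56 after glucose, and DSE1 by -1.28 beside -1.23. At 3 days the stb3-null signals of PHM6 (5.56 and 5.73) and DSE1 (5.55 and 5.75) were under the filter level of 5.80, so those differences are uncertain in size. Of the 22 phosphate genes 9 had both stb3-null arrays below both wild-type arrays at both times, against 4.98% of all genes, and 11 did at 3 days alone, against 16.9%. Of the 11 daughter-cell genes, which were picked from these values, 8 did at both times. HXT2 also lay lower at both times (-1.05 and -1.50). For SPL2 the interaction was -0.17 (SE 0.37, adjusted p = 0.925).

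**Figure D5:**
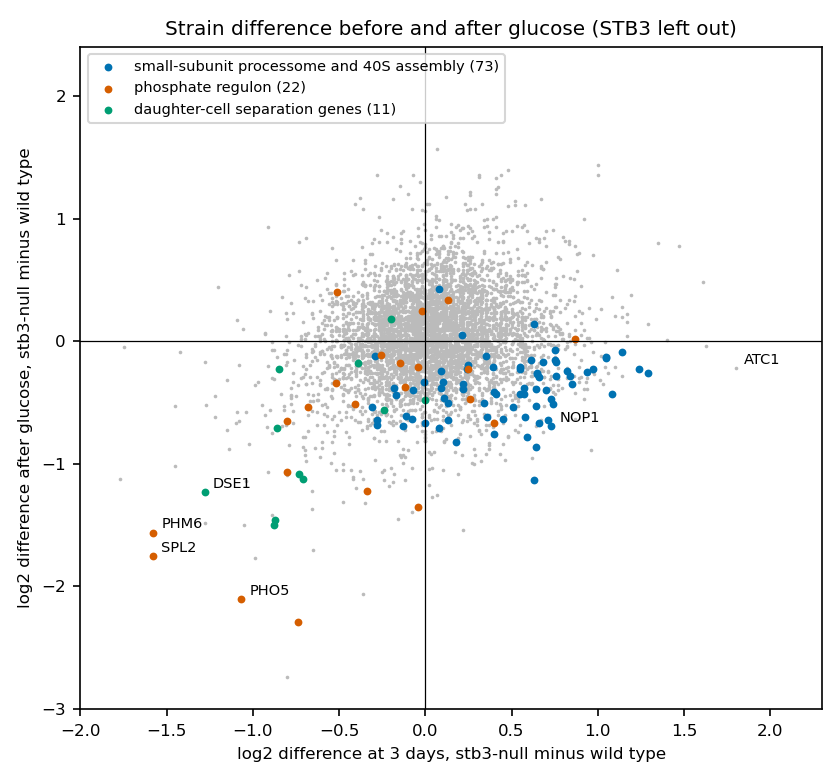
Log2 strain difference after glucose (vertical) against that at 3 days (horizontal) for each gene, with STB3 left out, and with 73 processome and 40S assembly genes in blue, 22 phosphate genes in orange and 11 daughter-cell genes in green. Many blue points lie right of 0 and below 0 (medians 0.55 and -0.39), while SPL2, PHM6, PHO5 and DSE1 lie low on both axes.

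The ribosome assembly lists had medians of opposite sign before and after glucose, and so did some other lists. The median difference of the processome and 40S list was 0.55 at 3 days and -0.39 after glucose, and that of the 60S list 0.41 and -0.30. At 3 days 46 of the 73 and 51 of the 83 genes had both stb3-null arrays above both wild-type arrays, against 20.3% of all genes. Above at 3 days and below after glucose were 29 and 26 of them, against 3.56% of all genes. The interaction was negative with an unadjusted p under 0.05 in 43 of 73 and 34 of 83, against 4.38% of all genes, and 0 passed after adjustment. NOP1 gave 7.23 and 7.40 in wild type and 8.07 and 8.01 in stb3-null before glucose, and its interaction was -1.41 (SE 0.29, adjusted p = 0.644). NOP14, of the processome, differed by 1.29 at 3 days and by -0.26 after glucose (interaction -1.54, SE 0.26, adjusted p = 0.465). The sign change was not particular to assembly genes. Medians at 3 days and after glucose were 0.32 and -0.25 for translation factors and 0.41 and -0.16 for tRNA synthetases. At 3 days 18 of 36 and 15 of 22 of these genes had both stb3-null arrays above both wild-type arrays.

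Other genes were near wild type before glucose. MET3 differed by -0.08 at 3 days, PHO3 by -0.04, TRM5 by -0.08, HXT1 by 0.22, ATG8 by -0.03 and PXA2 by -0.08. The 3-day signals of HXT1 (5.86 to 6.81), TRM5 (6.25 to 6.48) and MET3 (6.67 to 6.86) were not far above the filter level of 5.80. For these genes the difference before glucose is uncertain in size. The interaction of HXT1 was -1.76 (SE 0.46) and that of ATG8 1.33 (SE 0.39), with adjusted p of 0.644 and 0.651. For DFP3 it was 1.53 (SE 0.28, adjusted p = 0.507), from -0.41 at 3 days to 1.12 after glucose.

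In the remaining lists 0 genes passed. The signalling genes of glucose, protein kinase A and TOR had a median of 0.10 over 38 genes, with RAS1 at -0.62. Of these, 14 (36.8%) lay above wild type on both arrays and 4 (10.5%) below, against 23.8% and 20.3% of all genes. SDC25, for a Ras exchange factor, differed by 0.88, but its wild-type signals (5.62 and 5.30) were under the filter level, and with a pseudocount of 20% it differed by 0.31. In the list of sterol, fatty acid and phospholipid synthesis the median was -0.11 over 37 genes. INO1, for the enzyme that makes inositol phosphate, gave 9.21 and 8.08 in wild type and 7.26 and 7.14 in stb3-null (-1.45, SE 0.38, adjusted p = 0.331). The list of G1 cyclins and replication had a median of -0.12 over 32 genes, with WHI5, for an inhibitor of cell-cycle start, at -0.48. The list of the exosome, RNA decay and nuclear transport had a median of -0.06 over 56 genes, and other amino acid synthesis -0.27 over 59. Of those 59, 23 (39%) lay below wild type on both arrays, against 20.3% of all genes, and 1 above. SER2, for the last step of serine synthesis, was at -0.79. The last median was -0.06 without wild type B and -0.44 without wild type A. Of 5 histone genes 3 (60%) lay below wild type on both arrays, against 20.3% of all genes (median -0.24). The 9 measured meiosis genes had a median of -0.11, with NDT80, for an activator of middle meiosis genes, at 6.99 and 6.75 against 5.89 and 5.85 (-1.0, SE 0.26). The stb3-null signals of NDT80 were near the filter level, and with a pseudocount of 20% it differed by -0.43.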

How the data were processed

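RNA of 8 yeast samples was hybridised to 1 Affymetrix array each, and groups were read from the sample titles. The deposited table held log2 signals for 9275 probe sets, and the submitters' processing notes name MAS5 with no version or role. For the scaling between arrays, the sources used here name no method. The log base was read from the values, which ran up to 14.55. The number of arrays limits the precision.

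Probe sets were named through the platform annotation and RefSeq: 6504 had 1 gene, 328 several and 2443 none listed, and the last 2 kinds were not used. For 315 genes with several probe sets the one with the highest mean was kept. Genes needed a mean antilog signal of at least 10% of the mean trimmed mean (2% trimmed from each end), a log2 level of 5.80. limma 3.58.1 in R 4.3.3 was fitted to all 8 arrays with a mean per group and a mean-variance trend (4 residual and 5.56 prior degrees of freedom), two-sided, with Benjamini-Hochberg adjustment over all 5343 genes. The 3-day and interaction contrasts came from the same fit. It was tested on simulated data in which each gene had the same spread in all groups. In the data the SD of A minus B was larger in wild type (0.548 after glucose, 0.577 at 3 days) than in stb3-null (0.278 and 0.261). The simulation does not cover that unequal spread. An exact permutation test of 2 against 2 arrays cannot give a p below 0.333.

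The lists and the rule for named genes were chosen with earlier results of these data known, and the daughter-cell list after the values were seen. The rule named STB3, CDC37 and SEC7, then the 10 genes of smallest p in each direction, as fewer than 10 passed, and the 2 highest and 2 lowest members of each list by moderated t. Other genes in the text were chosen after their values were seen. Planned counts of promoter motifs were not run, because promoter sequences were not used here.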

Additional observations from a re-analysis of the deposited data

How the results depend on the processing

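Results were recomputed under 11 other ways of processing and with each of the 8 arrays left out. The number of genes passing as lower in stb3-null was 1 as reported and 4 with array weights. It was 0 with the filter at 40%, which leaves STB3 out, and 0 with a pseudocount of 20%, under which STB3 differed by -1.67 (adjusted p = 0.117). Leaving out 1 array gave 1 to 35 lower and 0 to 21 higher genes. The highest counts came without wild type glucose 10 min replicate A. Each of these fits leaves 1 array in a group, so its count is not read as a number of genes that differ. There were 4 lower genes without wild type 3 days replicate B and 1 higher gene, DAL4, without stb3-null glucose 10 min replicate B. In the other settings that kept STB3 it lay between -5.76 and -4.96, with adjusted p from 2.14e-06 to 0.0227. With the replicate block 1 gene passed as lower (STB3, -5.36, adjusted p = 5.9e-05) and 0 as higher. The labels do not say that A and B pair the samples, and the A minus B differences correlated across genes at 0.13 between strains after glucose and -0.18 at 3 days. Quantile normalisation, median centring and a common trimmed mean moved the median of all genes to between -0.03 and 0.02 and left 1 lower and 0 higher genes. Without wild type glucose 10 min replicate B the medians of the tricarboxylic acid cycle, stress and hexose transporter lists were -0.10, -0.07 and -0.16. The cause of these shifts was not tested. Leaving ATC1 out of the glycogen list was chosen after seeing the data. The alternatives for promoter motifs were not run.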
